A study of Rattus norvegicus with 56 samples.

Results

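Regions of rat brain chromatin that carried a peak of trimethylated histone H3 lysine 4 (H3K4me3) in one hemisphere at both ages, and in the other hemisphere at neither, are described here. Overlapping peaks of the 4 H3K4me3 lists (13 and 21 months, ipsilateral and contralateral to the haemorrhage) were joined wherever they shared at least 1 bp, which gave 56333 regions. Of these, 540 had a peak in both ipsilateral lists and in neither contralateral list and form the ipsilateral-only set, which is 0.959% of all regions. Another 662 had a peak in both contralateral lists and in neither ipsilateral list and form the contralateral-only set, 1.18% of all regions. The order of the 2 sizes rests on the number of peaks listed: with equal numbers of H3K4me3 peaks per list, the sets held 580 and 457 regions. For scale, 18912 regions had a peak in all 4 lists, 875 only in the 13-month ipsilateral and 21-month contralateral lists, 138 only in the 13-month contralateral and 21-month ipsilateral lists, 214 only on both sides at 13 months and 1590 only on both sides at 21 months. The members were thus chosen by the H3K4me3 peak calls, so their H3K4me3 values are given as a description, and side comparisons rest on lists of other marks from other immunoprecipitations.

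Histone marks were mapped with ChIP-seq (sequencing of DNA recovered with a histone antibody) in brain tissue of rats that had all had an intracerebral haemorrhage, a bleed into the brain, so that the contralateral tissue comes from an injured animal and no uninjured rat entered these comparisons. The untreated groups were ipsilateral and contralateral brain of adult rats labelled 13 months old and of old rats labelled 21 months old (the series' design text gives 22 months for the old rats), each profiled for H3K4me3, acetylated H3K9 (H3K9ac) and H3K27me3. H3K9ac and H3K27me3 were also profiled in ipsilateral brain of 21-month rats that received plasma of rats aged 3 or 22 months. Of 56 libraries, 28 were immunoprecipitates and 28 their inputs. The authors called 1 peak list per group and mark from 2 pooled immunoprecipitates and 2 pooled inputs, or from 1 of each for the plasma groups.

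Because each group is 1 list, there is no spread between replicates, no test was possible, and the 95% Wilson intervals below cover counting error over regions only. Regions that lie close together are not independent, and the labels do not say how many animals stand behind a library. The tissue is bulk brain, in which fewer cells of a type and less mark per cell cannot be told apart. The labelled tissue was not checked against marker genes, because the build of the coordinates was not given in the sources used here and no annotation matched to it was used, so regions are named by position alone. The H3K4me3 lists of the 2 ages stand under different folders in the file headers, so age and processing run cannot be told apart, whereas the lists of both sides of an age share a folder. The H3K4me3 lists were of similar size, with 33661 and 33574 peaks at 13 months and 30356 and 35063 at 21 months on the ipsilateral and contralateral sides, from 71357444 to 91768484 tags kept per list.

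H3K4me3 is deposited around the start sites of active and poised genes, and broad H3K4me3 is typical of promoters of highly used genes, while short weak peaks are also found at enhancers. H3K9ac accompanies active promoters and enhancers, and H3K27me3 is the Polycomb mark of silenced developmental genes, which coincides with H3K4me3 at bivalent promoters. After a haemorrhage, microglia and astrocytes of the injured side react and blood-borne leukocytes enter the tissue, so the injured side can hold other cells than the opposite one.

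The H3K4me3 enrichment of the members was modest in both sets. The value used is the authors' fold enrichment over local background at the peak summit. In the ipsilateral-only set the median fold was 3.25 at 13 months (lowest 1.70, highest 7.74) and 3.19 at 21 months (1.73 to 7.14). All peaks of the same 2 lists had medians of 4.32 and 5.72. In the contralateral-only set the median was 2.87 at 13 months (1.28 to 9.50) and 3.38 at 21 months (1.43 to 11.3), against 4.22 and 5.71 for all peaks of those lists. No ipsilateral-only member reached 8-fold at either age, and 1 contralateral-only member did at 13 months and 2 did at 21 months.

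The 2 ages gave similar folds for most members, which the rule favours, because a member needed overlapping peaks at both ages. The values of this paragraph therefore only describe the members, and no share over other regions stands beside them. The folds at the 2 ages lay within 1.5 times of each other in 433 of 540 ipsilateral-only members (80.2%) and in 479 of 662 contralateral-only members (72.4%). The 13-month fold was the higher one in 276 ipsilateral-only members (51.1%) but in only 194 contralateral-only members (29.3%). The strongest summits of the 2 ages lay a median of 68 bp apart in the ipsilateral-only and 54.5 bp apart in the contralateral-only set, and 350 (64.8%) and 473 (71.5%) members had them within 100 bp.

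**Figure D1:**
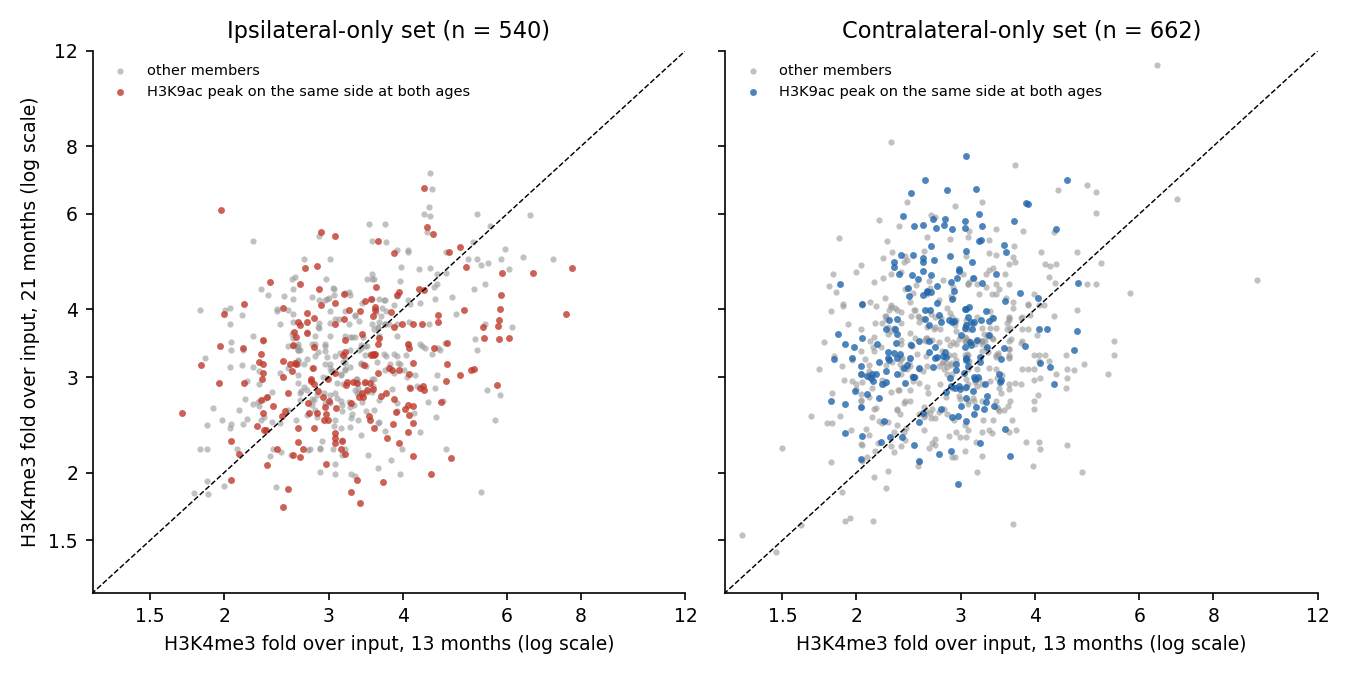
Each point is 1 member, with the authors' H3K4me3 fold at 13 months on the x axis and at 21 months on the y axis (both log scales), in the ipsilateral lists for the ipsilateral-only set (left) and the contralateral lists for the contralateral-only set (right). Coloured points have an H3K9ac peak on the same side at both ages. The dashed line marks equal folds. In the left panel 276 of 540 points lie below it and in the right panel 194 of 662.

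Some members sat at the authors' cutoff, a q-value of 0.05 or -log10 q of about 1.30. The weakest own-side peak of an ipsilateral-only member, at chr7:142296688-142296990, had a -log10 q of 1.31 at 13 months and 6.52 at 21 months. The weakest of a contralateral-only member, at chr1:101848413-101848712, had 1.55 at 13 months and 1.31 at 21 months. Just outside the rule stood 1390 regions with ipsilateral peaks at both ages and a contralateral peak at 1 age, whose contralateral -log10 q had a median of 10.7 and a lowest value of 1.31, at chr17:87844831-87845300. On the contralateral side 1047 such regions had a median of 6.50 and a lowest value of 1.31. Signal below the cutoff is not in a peak list, so absence from a list is not absence of the mark.

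The members were short, and the ipsilateral-only set had a tail of longer regions. Its median length was 379 bp (10th to 90th percentile 232.9 to 869.8 bp, longest 2900 bp), against 333.5 bp (203.3 to 655.8 bp, longest 1537 bp) in the contralateral-only set. The medians were 575 and 440 bp with peaks joined across gaps of up to 1 kb, and 497 and 447 bp with H3K4me3 peaks at a -log10 q of 5 or more. The other 2817 regions with peaks in exactly 2 lists had a median of 367 bp, and the regions in all 4 lists one of 1626 bp. At least 1 kb was spanned by 42 ipsilateral-only members (7.78%), 8 contralateral-only members (1.21%) and 46 of the other regions in 2 lists (1.63%). At the short end, 26 ipsilateral-only members (4.81%) and 57 contralateral-only members (8.61%) were 200 bp or less.

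The longest ipsilateral-only region, chr16:20561187-20564086 (2900 bp), had H3K4me3 folds of 7.56 at 13 and 3.93 at 21 months, and it lay 3.18 kb from a region in all 4 lists. Its ipsilateral H3K9ac folds were 4.14 and 3.19, and a contralateral H3K9ac peak was called at 13 months (3.06) but not at 21. The next longest, chr3:121880246-121882686 (2441 bp), held folds of 5.62 and 5.70 and had H3K9ac in the 13-month ipsilateral list alone among the untreated lists (4.63). The region chr9:81655760-81657829 (2070 bp) had H3K9ac in all 4 untreated lists, with ipsilateral folds of 9.05 and 6.09 against contralateral folds of 4.23 and 3.11. The remaining 2 of the 5 longest, chr1:73395661-73397887 and chr17:10137984-10139763, had H3K9ac on the ipsilateral side only, at 13 months (4.90) in the first and at both ages (5.34 and 3.56) in the second. Thus all 5 had ipsilateral H3K9ac at 13 months. All but chr1:73395661-73397887 also had H3K27me3 in the 21-month contralateral list, with folds of 2.57 to 3.80.

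The 5 longest contralateral-only regions likewise all had H3K9ac on their own side at 13 months, with folds of 2.91 to 4.93. Of the 8 contralateral-only members of 1 kb or more, 100% had contralateral and 25% ipsilateral H3K9ac at 13 months. At 21 months 37.5% had contralateral and 87.5% ipsilateral H3K9ac. Among the 5 longest, 2 carried strong H3K27me3. The longest, chr6:146785507-146787043 (1537 bp), lay 0.16 kb from a region in all 4 lists, had H3K4me3 folds of 2.41 and 5.03, and carried H3K27me3 in every list, with ipsilateral and contralateral folds of 9.75 and 14.9 at 13 months, beside 10.4 and 19.7 in the 21-month lists. The fifth longest, chr2:204429607-204430808 (1202 bp), likewise carried H3K27me3 in all lists, with 7.27 and 8.55 at 13 months and 8.04 and 18.7 at 21 months. In each, contralateral folds were the higher ones at both ages, as they were in most regions with H3K27me3 on both sides, where the ipsilateral fold was higher in 21.0% at 13 months and 19.2% at 21 months.

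Location relative to regions in all 4 lists was alike in the 2 sets near such regions and differed far from them. Within 5 kb of a region in all 4 lists lay 162 ipsilateral-only members (30%) and 209 contralateral-only members (31.6%), compared with 30.4% of the other regions in 2 lists. With peaks joined across gaps of up to 1 kb the shares were 10.4% and 9.26%. Within 1 kb lay 106 (19.6%) and 132 (19.9%). More than 50 kb away lay 152 ipsilateral-only members (28.1%) but 254 contralateral-only members (38.4%), and the median distances were 18.6 and 23.6 kb. The contralateral-only share was near that of the other regions in 2 lists (37.4%, median 24.8 kb) and of all regions (40.3%). An H3K4me3 peak of the opposite side lay within 1 kb of 151 (28.0%) and 191 (28.9%) members, so that similar shares of both sets bordered chromatin that also carried H3K4me3 on the other side.

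Members were spread over the chromosomes, with 1 ipsilateral-only and 2 contralateral-only members on unplaced sequences and none on chromosome Y. Per 1000 regions of a chromosome, ipsilateral-only members were most frequent on chromosomes 20 (13.9), 13 (13.2) and 1 (12.3) and least frequent, among chromosomes with members, on chromosome 18 (3.54, or 6 members), against 9.59 over the genome. Contralateral-only members were most frequent on chromosome 12 (17.1) and least on chromosome 14 (5.69), against 11.8 over the genome. Chromosome 18 thus held 6 ipsilateral-only but 22 contralateral-only members.

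Ipsilateral-only members lay close to one another more often than contralateral-only members did, an order that turned when peaks were joined across wider gaps. Another member of the same set lay within 100 kb of 138 ipsilateral-only members (25.6%) and of 74 contralateral-only members (11.2%). In the 4 other classes of regions with peaks in exactly 2 lists (138 to 1590 regions), this share ranged from 14.5% to 22.9%. In the 18912 regions in all 4 lists it was 86.6%. With peaks joined across gaps of up to 1 kb, which merges the closest neighbours, the ipsilateral-only and contralateral-only shares were 11.3% and 14.8%. At closer range, with peaks joined only where they overlap, the contrast was wider, with 78 ipsilateral-only members (14.4%) and 4 contralateral-only members (0.604%) having a neighbour within 1 kb. In the 4 other classes of regions with peaks in exactly 2 lists, the share within 1 kb ranged from 0.935% to 2.64%. In the regions in all 4 lists it was 13.1%. The 78 ipsilateral-only members formed 35 stretches with a median span of 1552 bp and a longest span of 3016 bp, and 29 of the 35 spanned 1 kb or more.

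In these 35 stretches 67.9% of members had ipsilateral and 16.7% contralateral H3K9ac at 13 months, and 52.6% and 15.4% did at 21 months. A single H3K9ac peak can lie on several neighbouring members and is counted at each. Over the ipsilateral-only set 10 peaks of the 13-month ipsilateral list did so, and 1 of the contralateral list. At 21 months 3 and 1 did, and in the contralateral-only set 0 did in each of these lists. Over runs with gaps up to 100 kb, the ipsilateral-only set had 58 runs of 2 or more members, of which 14 had at least 3, and the contralateral-only set had 33 and 7.

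**Figure D2:**
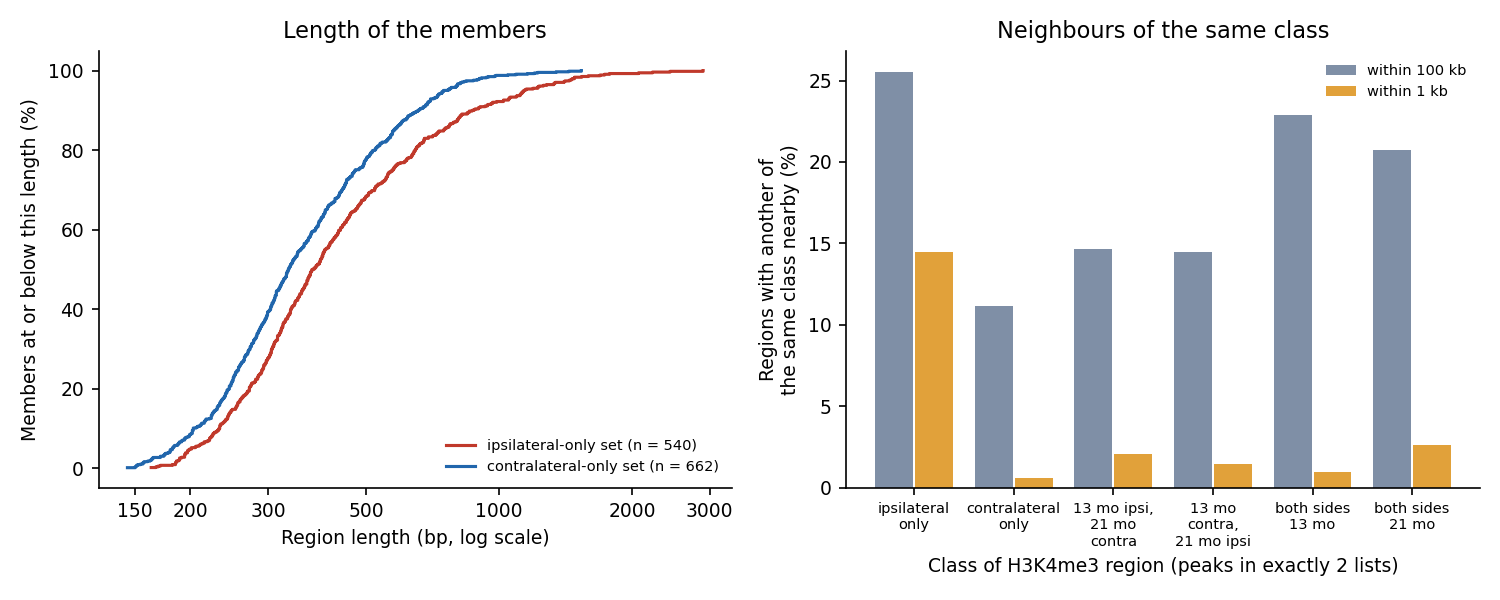
Left, the share of members (y axis) at or below each length (x axis, log scale), where the ipsilateral-only curve runs to the right of the contralateral-only curve with medians of 379 and 333.5 bp. Right, for each class of region with peaks in exactly 2 lists, the share with another region of its class within 100 kb or 1 kb, which within 1 kb is 14.4% for the ipsilateral-only set and at most 2.64% for the other classes.

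The tightest of the 5 largest ipsilateral-only runs was chr15:41643559-41645728, with 4 members in 2.17 kb and no region with a contralateral H3K4me3 peak inside it. Its H3K4me3 folds ranged from 2.82 to 5.50 at 13 months and from 2.65 to 3.55 at 21 months. All 4 members had ipsilateral H3K9ac at both ages, with 13-month folds of 4.86 to 6.80 and 21-month folds of 3.39 to 4.61. Neighbouring members shared the same fold (6.80 at 13 months, 4.61 at 21 months), so they are not separate counts of H3K9ac. A contralateral H3K9ac peak touched 1 of the 4, with folds of 4.32 and 1.79, and no untreated H3K27me3 list had a peak there. The run lay about 45.3 kb from the nearest region in all 4 lists.

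A pair of further runs also had H3K9ac mainly on the ipsilateral side. At chr15:57219248-57224097 (4 members in 4.85 kb), 3 members had ipsilateral H3K9ac at 13 months and 2 at 21 months, against 1 and 0 on the contralateral side, with no H3K27me3. At chr1:88847810-88881629 (4 members in 33.8 kb), all 4 had ipsilateral H3K9ac at 13 months, with folds of 5.80 to 6.98, and 2 had it at 21 months, and none had contralateral H3K9ac.

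The 2 runs with the most members had little H3K9ac. At chr4:156253531-156276200, 5 members in 22.7 kb had H3K4me3 folds of 2.89 to 5.15 at 13 months and 2.86 to 5.46 at 21 months and no H3K9ac peak in any list. H3K27me3 lay on 4 of them in the 21-month ipsilateral list and on none in the 21-month contralateral or either 13-month list. At chr9:14652807-14724227, 5 members in 71.4 kb had ipsilateral H3K9ac at 2 members at 13 months and 1 at 21 months, none contralaterally, and at 21 months H3K27me3 at 3 members ipsilaterally and all 5 contralaterally.

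The 5 largest contralateral-only runs carried next to no H3K9ac in the untreated lists. They held 16 members spread over 55.0 to 68.6 kb each, and the untreated H3K9ac lists touched 1 of them, a member of chr8:98741353-98796390 with a 13-month contralateral fold of 2.99. All 3 members of that run had H3K27me3 in all untreated lists. At chr1:180692732-180756186, all 3 members had H3K9ac in the list after plasma of 3-month rats, with folds of 2.11 to 3.95. Across all 74 contralateral-only members in runs, 14.9% had ipsilateral and 18.9% contralateral H3K9ac at 13 months, and 18.9% and 23.0% did at 21 months. Of the 588 members outside runs, 45.4% had contralateral H3K9ac at 13 months. In the ipsilateral-only set the order was the opposite, with ipsilateral H3K9ac at 65.9% of the 138 members in runs and 52.2% of the 402 others.

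H3K9ac, which the choice of members did not use, followed the side of H3K4me3 in the ipsilateral-only set at both ages. At 13 months an ipsilateral H3K9ac peak overlapped 301 of 540 members (55.7%, 95% Wilson interval 51.5 to 59.9%) and a contralateral one 159 (29.4%, 25.8 to 33.4%). At 21 months the numbers were 240 (44.4%, 40.3 to 48.7%) and 157 (29.1%, 25.4 to 33.0%). Both shares come from the same members, and the intervals hold no spread between lists or animals. Ipsilateral minus contralateral, the share differed by 26.3 percentage points at 13 months and 15.4 points at 21 months. The same difference was -2.85 and -0.394 points over all 56333 regions and -8.87 and -5.22 points over the other regions in exactly 2 lists.

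Discordant members show this in counts. At 13 months 161 ipsilateral-only members (29.8%) had H3K9ac on the ipsilateral side alone, where 3.44% of all regions did, and 19 (3.52%) on the contralateral side alone, where 6.29% of all regions did. At 21 months 129 (23.9%) had it on the ipsilateral side alone, where 5.2% of all regions did, and 46 (8.52%) on the contralateral side alone, where 5.6% of all regions did. Both ages together, 62 members (11.5%) had H3K9ac in both ipsilateral lists and neither contralateral list. This pattern was found in 0.717% of all regions and 1.21% of the other regions in 2 lists. The reverse pattern fell on 5 members (0.926%), against 1.09% of all regions and 3.12% of the other regions in 2 lists. No H3K9ac peak in any untreated list fell on 175 members (32.4%), against 47.5% of all regions and 33.8% of the other regions in 2 lists.

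Where both sides had a peak, the ipsilateral one was usually the higher at 13 months. The ipsilateral fold exceeded the contralateral in 124 of 140 such ipsilateral-only members (88.6%), with medians of 5.21 and 3.38, and in 56.8% of all regions with peaks on both sides. At 21 months it did in 71 of 111 (64.0%), with medians of 3.43 and 2.97, below the 77.7% of all regions. In the other regions in 2 lists the ipsilateral fold was higher in 63.2% at 13 months and 59.3% at 21 months. Fold enrichment is scaled within each list, so its level between lists is read only against the same share over all regions.

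In the contralateral-only set H3K9ac was more frequent on the contralateral side at 13 months, as it also was in other classes of regions, and the sides were close at 21 months. At 13 months 281 of 662 members had contralateral H3K9ac (42.4%, 38.7 to 46.2%) and 189 ipsilateral (28.5%, 25.2 to 32.1%), a difference of -13.9 points (interval -17.6 to -10.2 points). At 21 months 293 (44.3%, 40.5 to 48.1%) and 279 (42.1%, 38.4 to 45.9%) did, a difference of -2.11 points (interval -5.81 to 1.58 points). At 13 months 129 members (19.5%) had it on the contralateral side alone, against 6.29% of all regions and 16.0% of the other regions in 2 lists, and 37 (5.59%) on the ipsilateral side alone, against 3.44% of all regions. At 21 months these were 85 (12.8%) and 71 (10.7%), against 5.6% and 5.2% of all regions. Both contralateral lists and neither ipsilateral list had H3K9ac on 16 members (2.42%), against 1.09% of all regions but 3.12% of the other regions in 2 lists. That share was 4.15% in regions with H3K4me3 only on both sides at 21 months. The reverse pattern fell on 4 members (0.604%), against 0.717% of all regions and 1.21% of the other regions in 2 lists. H3K9ac in all 4 untreated lists was seen on 119 contralateral-only members (18.0%) and 82 ipsilateral-only members (15.2%). It was seen on 34.9% of all regions and 22.3% of the other regions in 2 lists.

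Other classes of regions with H3K4me3 in 2 lists stand beside these values. The 875 regions with H3K4me3 only in the 13-month ipsilateral and 21-month contralateral lists had H3K9ac differences of -8.34 points at 13 months and 1.71 points at 21 months (interval -1.64 to 5.07 points), so at 13 months H3K9ac was more frequent on the side without H3K4me3. The 138 regions with the opposite arrangement had -5.80 and -8.70 points. The 1590 regions with H3K4me3 only on both sides at 21 months had -10.5 and -9.50 points, with H3K9ac on the contralateral side alone in 18.8% at 13 months. The contralateral-only value of -13.9 points at 13 months thus lay on the same side of 0 as all of these classes.

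**Figure D3:**
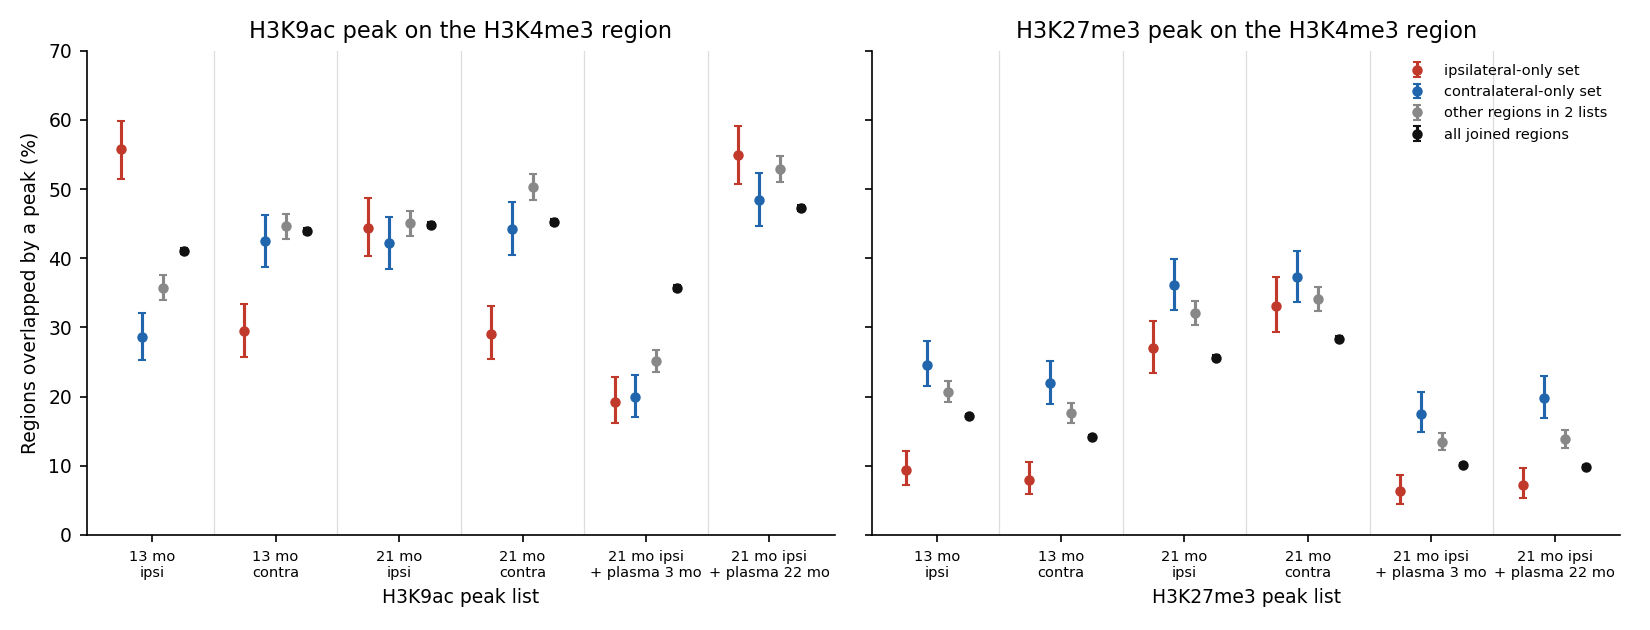
Share of regions (y axis) overlapped by an H3K9ac peak (left) or an H3K27me3 peak (right) of each list (x axis), with 95% Wilson intervals that cover counting error only. In the ipsilateral-only set (red) H3K9ac stands at 55.7% and 44.4% in the 2 ipsilateral lists and at 29.4% and 29.1% in the 2 contralateral lists, and H3K27me3 is below the contralateral-only set (blue) in all lists.

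Depth differed between the H3K9ac lists. After filtering, 19323327 tags remained in the 13-month ipsilateral list, for which the header gives 82% of the original tags as duplicates, against 46299770 tags and 55% in the contralateral list. At 21 months 66910243 and 99213634 tags remained. The numbers of peaks were 69557, 93770, 102607 and 120348 in that order, so the ipsilateral list was the shallower and shorter one at each age. With equal numbers of the strongest H3K9ac peaks on both sides, the ipsilateral-only difference was 32.0 points at 13 months and 18.5 points at 21 months. Under the same setting the contralateral-only difference was -8.16 points at 13 months and 1.36 points at 21 months, so its sign at 21 months depended on the number of peaks. With these equal numbers the differences were -0.676 and 0.973 points over all regions. Over the other regions in 2 lists they were -3.87 and -2.38 points.

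The H3K9ac difference was centred on the members. At the centre of ipsilateral-only members, 47.6% of positions lay in an H3K9ac peak of the 13-month ipsilateral list and 22.0% in one of the contralateral list, whereas 5 kb to either side the means were 5.46% and 5.93%. At 21 months the centre values were 35.2% and 23.5% and the values at 5 kb 6.11% and 5.65%. At 1 kb before the centre the 13-month values were 18.0% and 9.44%, so the excess extended past the median member. In the contralateral-only set the centre values were 23.4% ipsilateral and 36.9% contralateral at 13 months and 35.6% and 39.4% at 21 months.

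**Figure D4:**
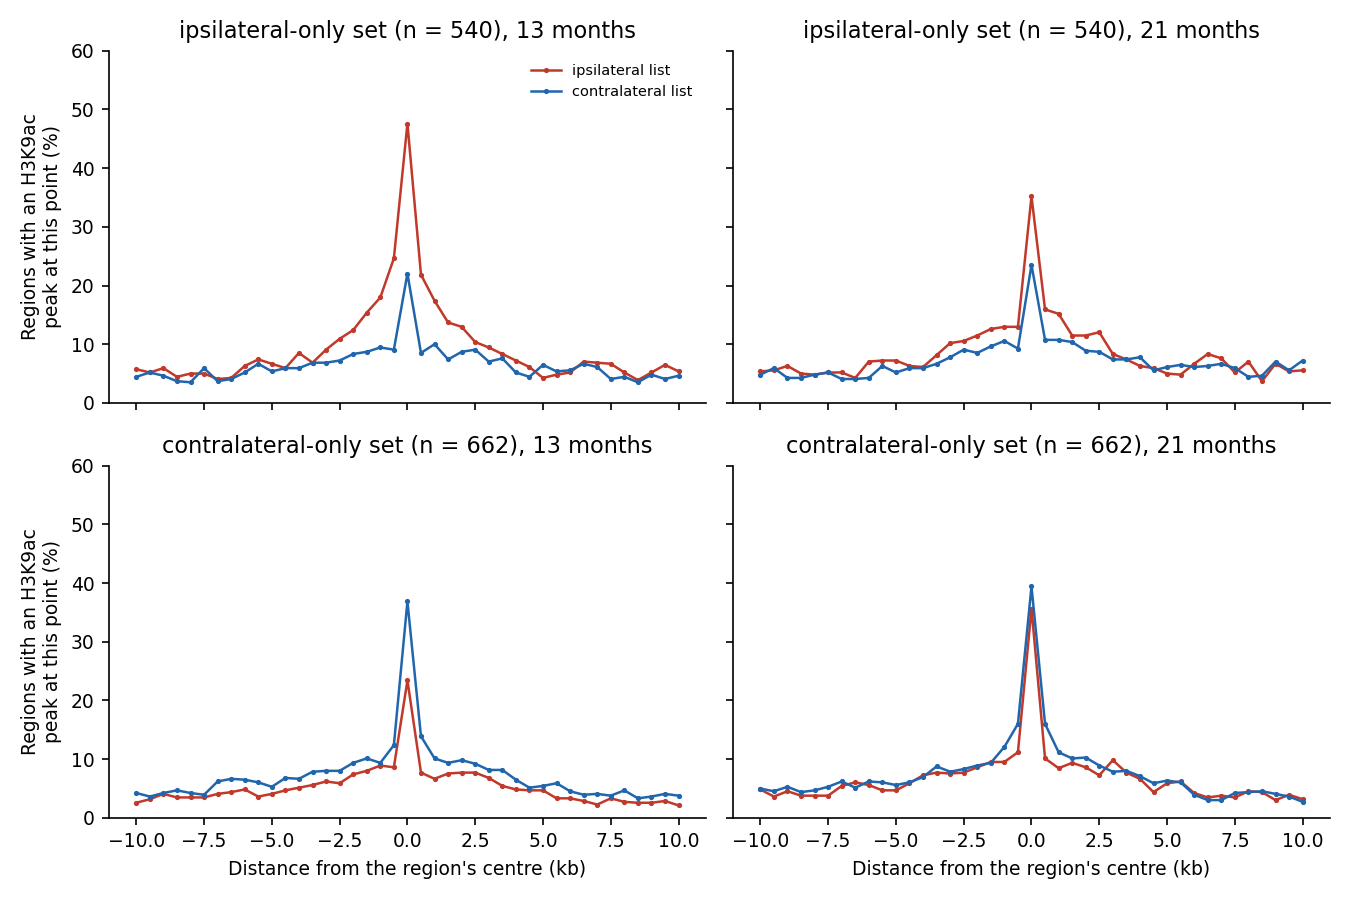
Share of members (y axis) with an H3K9ac peak at each distance from the member's centre (x axis, in kb), for the ipsilateral-only set (top) and the contralateral-only set (bottom) at 13 months (left) and 21 months (right). The ipsilateral line (red) is at 47.6% and 35.2% over the centre of ipsilateral-only members and the contralateral line (blue) at 22.0% and 23.5%, and the lines run together from about 5 kb outwards.

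The ipsilateral share was the higher one in all 4 length classes at both ages, with the widest gap in the longest class. Ipsilateral-only members under 300 bp (149) had H3K9ac in 44.3% ipsilaterally and 28.2% contralaterally at 13 months, and in 42.3% and 25.5% at 21 months. Members of 300 to under 500 bp (220) had it in 49.1% and 25.9% at the younger age, and in 38.2% and 31.4% at 21 months, the latter a difference of 6.82 points with an interval (-0.195 to 13.8 points) that includes 0. Members of 500 bp to under 1 kb (129) had it in 69.0% and 34.1%, and in 50.4% and 27.9%. Of the 42 members of 1000 bp or more, 90.5% and 38.1% had it at 13 months and 66.7% and 33.3% at 21 months. At 13 months 22 of these 42 had it on the ipsilateral side alone and 0 on the contralateral side alone. In the 140 contralateral-only members of 500 bp to under 1 kb the ipsilateral and contralateral shares were 46.4% and 65.7% at 13 months and 65.7% and 62.9% at 21 months.

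**Figure D5:**
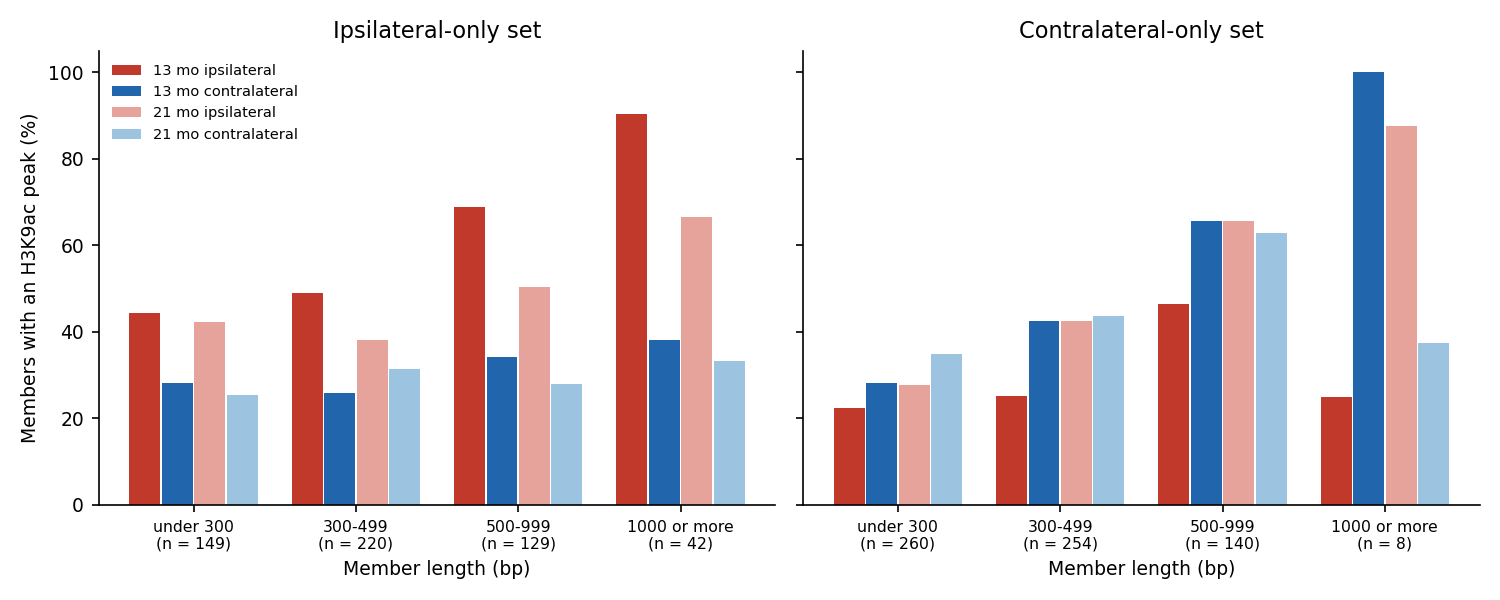
Share of members with an H3K9ac peak (y axis) by member length (x axis, with the number of members), one bar per untreated list, for the ipsilateral-only set (left) and the contralateral-only set (right). In the left panel the ipsilateral bar is above the contralateral bar in each length class at both ages, up to 90.5% against 38.1% in the longest class at 13 months; the longest class of the right panel holds 8 members.

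Members near a region in all 4 lists were acetylated more often on both sides. Within 5 kb of one, 67.9% of 162 ipsilateral-only members had ipsilateral and 38.3% contralateral H3K9ac at 13 months, and 57.4% and 34.6% did at 21 months. Farther away (378 members) the shares were 50.5% and 25.7%, and 38.9% and 26.7%. The side difference was therefore also present in members away from shared H3K4me3. By H3K4me3 strength, the 140 members whose lower fold was under 2.5 had ipsilateral and contralateral shares of 59.3% and 33.6% at 13 months, while the 110 members with a lower fold of 3.5 or more had 59.1% and 30.9%. In the 21-month lists the weaker members had 53.6% and 28.6%, and the stronger ones 40.0% and 32.7%. The 21-month difference was thus 25 points in the weaker and 7.27 points in the stronger members, the latter with an interval (-4.19 to 18.7 points) that includes 0.

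The 62 ipsilateral-only members with H3K9ac on the same side alone at both ages had a median length of 414.5 bp, 11 were 1 kb or longer, and 32 (51.6%) had another ipsilateral-only member within 100 kb. The 16 contralateral counterparts had a median length of 375 bp, none reached 1 kb and none had such a neighbour. Among the ipsilateral 62 the highest lower H3K9ac folds of the 2 ages were at chr6:126318067-126318406 (340 bp), with H3K9ac folds of 14.4 and 8.77 and H3K4me3 folds of 3.24 and 3.98. Second came chr1:12429854-12430089 (236 bp), with H3K9ac folds of 13.0 and 8.48 and H3K4me3 folds of 2.42 and 2.66. These 2 short regions lay 0.15 and 0.18 kb from a region in all 4 lists, so they bordered chromatin marked on both sides.

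Others of the leading 10 lay farther from regions in all 4 lists. The region chr4:155690147-155691170 (1024 bp) had H3K4me3 folds of 5.88 and 4.66 and H3K9ac folds of 6.02 and 4.95, and lay 18.2 kb from a region in all 4 lists. The region chr7:138834302-138835583 (1282 bp) had H3K4me3 folds of 3.61 and 4.39 and H3K9ac folds of 4.80 and 5.37, 126 kb from the nearest such region. Both lacked contralateral peaks of H3K9ac and H3K4me3 at both ages, as the choice of these regions required. The region chr6:102167430-102168359 (930 bp) had H3K4me3 folds of 4.73 and 2.95 and H3K9ac folds of 4.63 and 4.86, at 26.5 kb.

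The leading contralateral region was chr8:1448476-1448884 (409 bp, 0.09 kb from a region in all 4 lists), with contralateral H3K9ac folds of 4.95 and 8.35. At chr10:83885685-83885916 (232 bp) they were 16.3 and 3.98, and at chr5:153259185-153259410 (226 bp) 18.5 and 2.62. Of the 10 leading contralateral regions 7 lay within 5 kb of a region in all 4 lists, and 4 of the 10 leading ipsilateral regions did.

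The members with the highest H3K4me3 fold differed in form between the sets. The first 10 ipsilateral-only members by the lower fold of the 2 ages had a median length of 849 bp, and 4 were at least 1 kb. They began with chr4:163112083-163112544 (folds 6.55 and 5.96). Of these, 3 were neighbours in chr4:163224736-163227413, with folds of 5.26 and 5.32, 5.96 and 5.16, and 6.38 and 5.01, and none of the 3 had a peak of H3K9ac or H3K27me3 in any list. The first 10 contralateral-only members had a median length of 194.5 bp, and 7 of them were under 210 bp. The highest, chr2:155281994-155282180 (187 bp), had folds of 6.42 and 11.3. No untreated H3K9ac list had a peak on 7 of these 10, compared with 5 of the 10 ipsilateral-only members. Of those 10 ipsilateral-only members, 4 had ipsilateral H3K9ac at 13 months and 1 at 21 months. Contralateral H3K9ac at 21 months lay on chr4:163112083-163112544, chr2:120556518-120556931 and chr2:150701048-150702279, with folds of 2.70, 7.39 and 2.96. The second of these had no ipsilateral H3K9ac in the untreated lists and a 13-month contralateral fold of 4.79.

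H3K27me3 lay on a smaller share of ipsilateral-only than of contralateral-only members in all lists. The shares were closest in the 21-month contralateral list, where the intervals of the 2 sets overlapped. In the other regions in 2 lists the ipsilateral and contralateral shares were 20.7% and 17.6% at 13 months and 32.1% and 34.0% at 21 months. At 13 months it lay on 51 of 540 ipsilateral-only members in the ipsilateral list (9.44%, 7.26 to 12.2%) and 43 in the contralateral list (7.96%, 5.97 to 10.6%). In the contralateral-only set the shares were 24.6% (21.5 to 28.0%) and 21.9% (18.9 to 25.2%), and over all regions 17.2% and 14.2%. At 21 months, when the lists held 300668 ipsilateral and 367061 contralateral peaks against 117866 and 51805 at 13 months, the ipsilateral-only shares were 27.04% and 33.1% and the contralateral-only shares 36.1% and 37.3%, against 25.6% and 28.3% of all regions.

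Between the sides H3K27me3 differed by few points. In the ipsilateral-only set the ipsilateral minus contralateral difference was 1.48 points at 13 months, where 30 members (5.56%) had it on the ipsilateral side alone, against 5.76% of all regions, and 22 (4.07%) on the contralateral side alone, against 2.84%. It was -6.11 points at 21 months, where 33 members (6.11%) had it on the ipsilateral side alone, against 5.33% of all regions, and 66 (12.2%) on the contralateral side alone, against 8.06% of all regions. In the contralateral-only set it was 2.72 points and -1.21 points. H3K27me3 in both ipsilateral lists and neither contralateral list fell on 4 ipsilateral-only members (0.741%), against 1% of all regions. The mirror pattern fell on 8 contralateral-only members (1.21%), against 0.493% of all regions. Over all regions the side difference was 2.92 and -2.72 points. Tags kept for H3K27me3 were 71635071 ipsilateral and 35621686 contralateral at 13 months, and 117740131 and 73142126 at 21 months. With equal numbers of H3K27me3 peaks on both sides, the ipsilateral-only difference was -2.22 points at 13 months and -1.30 points at 21 months (interval -4.79 to 2.20 points), and the contralateral-only difference -2.87 and 1.36 points, so 3 of the 4 signs depended on the number of peaks.

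H3K27me3 lay on a smaller share of the members with H3K9ac on the same side than of the rest, except in the contralateral-only set at 13 months, where the shares were nearly equal. At 13 months 6.31% of the 301 ipsilateral-only members with ipsilateral H3K9ac had ipsilateral H3K27me3, against 13.4% of the rest, and at 21 months 19.2% of 240 against 33.3%. In the contralateral-only set the shares in the contralateral lists were 21.7% against 22.0% at 13 months and 30.7% against 42.5% at 21 months. Of the 42 longest ipsilateral-only members, 33.3% had ipsilateral and 52.4% contralateral H3K27me3 at 21 months, where 66.7% and 33.3% had H3K9ac. Neither comparison was made over other regions, so these shares describe the members and are not read as a trait of the sets.

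The plasma lists come from other ipsilateral tissue of 21-month rats and were not used by the choice of members. After plasma of 22-month rats 297 ipsilateral-only members had H3K9ac (55%, 50.8 to 59.1%), and after plasma of 3-month rats 104 did (19.3%, 16.2 to 22.8%). The contralateral-only shares were 48.5% and 19.9%, those of all regions 47.3% and 35.7%, and those of the other regions in 2 lists 52.9% and 25.1%. The 22-month plasma list held 123863 H3K9ac peaks and the 3-month plasma list 50651, from 56130825 and 57426239 tags. With equal numbers of peaks the ipsilateral-only difference between the plasma lists was 16.5 points, in place of 35.7 points.

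Of the 240 ipsilateral-only members with H3K9ac in the untreated 21-month ipsilateral list, 198 (82.5%) also had it after 22-month plasma and 69 (28.8%) after 3-month plasma. The corresponding shares were 84.9% and 32.3% of 279 contralateral-only members, 93.7% and 73.4% over all regions, and 84.5% and 38.4% of the other regions in 2 lists. Of the 62 members with H3K9ac in both ipsilateral lists alone, 49 (79.0%) had it after 22-month plasma and 9 (14.5%) after 3-month plasma. The same untreated pattern held in 404 of all regions, members included, of which 72.8% and 10.1% had H3K9ac after 22-month and 3-month plasma, and in 34 of the other regions in 2 lists, of which 70.6% and 8.82% did. Among the 10 leading of these regions 8 and 0 did. H3K27me3 lay on 6.30% and 7.22% of ipsilateral-only and on 17.5% and 19.8% of contralateral-only members after 3-month and 22-month plasma, against 10.2% and 9.86% of all regions.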

How the data were processed

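The authors deposited 16 peak lists, all of which were read. Per the file headers they were called with MACS 2.1.1.20160309 at a q-value cutoff of 0.05 with 1 tag kept per position and an effective genome size of 2.7 Gb. cutadapt, Bowtie2 and HOMER are named in the submitters' processing notes. The genome build was not given in the sources used here. The deposited columns used were the pileup signal at the summit (scaled by the caller), the fold enrichment ratio over local background, and the -log10 q-value. Peak files hold no depth per region; per the file headers, 71357444 to 91768484 tags were kept for H3K4me3, 19323327 to 99213634 for H3K9ac and 35621686 to 117740131 for H3K27me3.

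From these, overlapping H3K4me3 peaks were joined (1 bp), regions were classed by the lists with a peak, and the other marks' peaks were counted as present at an overlap of 1 bp (Python 3.11.15, pandas 2.3.3, scipy 1.17.1). The highest fold was taken where several peaks met a region. Near means within 5 kb, and runs have gaps of up to 100 kb. The joining and overlap steps were tested on simulated data. Regions are named by rule: per set, the 10 with the highest lower H3K4me3 fold of the 2 ages, the 10 with the highest lower H3K9ac fold among those with H3K9ac on that side alone at both ages, the 5 longest regions and the 5 largest runs; some of them are counted but not named. The marker gene lists set out for cell types were not used, since no annotation of the build was used here. Members and lists were chosen with earlier results of these data known. With 1 pooled list per group no test was made. Alternatives changed the peak number, cutoff, joining and overlap.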

Additional observations from a re-analysis of the deposited data

Results flagged for a closer look

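The H3K27me3 side difference (share of members with an ipsilateral peak minus share with a contralateral peak) had opposite signs at the 2 ages in both sets. In the ipsilateral-only set it was 1.48 points at 13 months and -6.11 points at 21 months, and in the contralateral-only set 2.72 points at 13 months and -1.21 points at 21 months. The difference between the ages was not tested, since each group is 1 pooled list. The same change of sign appeared over all regions (2.92 and -2.72 points). With equal numbers of peaks per side, the ipsilateral-only values were -2.22 and -1.30 points and the contralateral-only values -2.87 and 1.36 points.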

How the results depend on the processing

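No paired analysis was possible because each group is 1 peak list that pools its libraries, so no list carries a replicate number. The H3K9ac difference of the ipsilateral-only set stayed positive under all 9 alternatives at both ages (19.7 to 32.0 points at 13 months, 9.75 to 22.2 points at 21 months), and that of the contralateral-only set stayed negative at 13 months (-17.3 to -8.16 points). With H3K4me3 peaks at a -log10 q of 5 or more, the contralateral-only set held 388 members, its 21-month H3K9ac difference was 1.55 points, its 21-month H3K27me3 difference was -4.90 points and the 13-month H3K27me3 difference of the ipsilateral-only set was -0.831 points. With peaks joined across gaps of up to 1 kb, the H3K9ac differences of the ipsilateral-only set were 19.7 and 9.75 points, its 13-month H3K27me3 difference 4.54 points, and the 13-month contralateral-only differences -9.60 points for H3K9ac and 6.57 points for H3K27me3. With equal numbers of peaks of the other mark, the ipsilateral-only values were 32.0 points for H3K9ac at 13 months and -2.22 and -1.30 points for H3K27me3 at 13 and 21 months, and the contralateral-only values -8.16 and 1.36 points for H3K9ac and -2.87 and 1.36 points for H3K27me3. With the other mark's peaks at a -log10 q of 5 or more, the 21-month H3K9ac differences were 22.2 and 0.151 points in the 2 sets. Counting peaks within 1 kb gave 21-month H3K27me3 differences of -11.5 and -4.83 points. The cause of these shifts was not tested. Joining across 1 kb also turned the order of the shares with another member within 100 kb (11.3% ipsilateral-only, 14.8% contralateral-only), and equal numbers of H3K4me3 peaks turned the order of the set sizes (580 and 457). The restriction to members over 5 kb from a region in all 4 lists, and all settings of the plasma comparison, were chosen after seeing the data. Peak lists bound what depth can show: weaker signal on the other side is not listed.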
